A study of Mus musculus with 54 samples.

Results

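Levels of messenger RNA were followed for 10 genes of the Bcl2 family, which carries both the killers and the protectors of mitochondrial apoptosis, in mouse tissues and cells after gamma irradiation. The members were taken by symbol from the deposited matrix: Bbc3, Pmaip1, Bcl2l11, Bid and Bad among the BH3-only killers, Bax and Bak1 among the effectors, and Bcl2, Bcl2l1 and Mcl1 among the protectors. All 10 were found among the 13570 genes of the matrix, none was at 0 in any of the 54 libraries, and all 10 passed the floor of a mean FPKM of at least 1 in each of the 5 systems. FPKM counts fragments per kilobase of a transcript after correction for sequencing depth and is thus a level per length that can be compared between genes.

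Polyadenylated RNA of C57B6 mice was sequenced from spleen, thymus, small intestine and large intestine (10 libraries each), together with 14 libraries of the established mouse embryonic fibroblast line NIH3T3. In each system the irradiated libraries, 1 at each hour from 1 to 8 h and 1 at 24 h after 10 Gy of gamma rays, were set against 1 library at 0 h that was not treated. NIH3T3 also had 1 irradiated library at each of 9, 10, 11 and 12 h. The labels give no age, sex or number of animals and do not say whether each library is its own animal or culture, so p-values reflect only how much these libraries vary, and with 0 h alone unirradiated, time and handling cannot be told apart from radiation.

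Proteins of the Bcl2 family act at the outer membrane of the mitochondrion. BH3-only proteins bind and occupy the protectors or switch on the effectors, and freed effectors form pores through which cytochrome c leaks out to start the caspase cascade. Several of the killer genes are textbook targets of p53, the transcription factor that DNA damage activates, and lymphoid cells are known to die readily by this route after irradiation. The title of the study links the dynamics of p53 to the radiation sensitivity of tissues, and the comparisons below ask which of the 10 genes changed over the first 8 h, when, and in which tissue.

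Differences are log2 changes of FPKM + 1, each with its standard error by limma, a linear model fitted across all genes tested in a system. The 8 irradiated libraries of 1 to 8 h, averaged, were set against the 0 h library, which is assumed to vary like the libraries within the windows of 1 to 2 h (n = 2), 3 to 5 h (n = 3) and 6 to 8 h (n = 3). A change was called where its two-sided p, adjusted by Benjamini-Hochberg over all genes tested, was below 0.05.

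At 0 h, B cell markers were highest in spleen, T cell markers in thymus and small intestinal enterocyte markers in small intestine. Other lists did not follow the labels. Colonocyte and goblet markers summed to 7761 FPKM in small intestine and 7235 FPKM in large intestine. Thymic epithelium markers summed to 1178 FPKM in small intestine and 845 FPKM in thymus, and erythroid markers to 23486 FPKM in large intestine and 1051 FPKM in spleen. In addition, 3 libraries carried transcripts of another organ. The summed level of 7 markers of the small intestinal enterocyte was 25571 FPKM in the 2 h large intestine library, against 291 to 2726 FPKM in the other large intestine libraries, and 6737 FPKM in the 24 h thymus library, against 5.13 to 19.4 FPKM in the other thymus libraries. The summed level of 8 markers of the exocrine pancreas was 66943 FPKM in the 6 h spleen library, against 8.44 to 197 FPKM in the other spleen libraries. No source used here gives total fragments, and counting intervals were therefore not computed. Relative depth, estimated roughly from low values, ran from 0.308 to 1 times that of the 0 h library in thymus, 0.518 to 1.23 in spleen, 0.637 to 1.23 in small intestine, 0.785 to 1.68 in large intestine and 0.758 to 1.93 in NIH3T3.

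At least 1 killer gene was called higher in every system, Bbc3 in all 5. Over 1 to 8 h, 5 of the 10 members were called in spleen, all higher, where 8.68% of all genes tested were called. In thymus 4 members rose and 1 fell, against a background of 11.9%. In small intestine 2 rose (background 0.317%), in large intestine 3 rose (background 1.51%) and in NIH3T3 2 rose (background 4.61%). The median change of the 10 members was 0.79 in spleen, 0.41 in thymus, 0.01 in NIH3T3, 0.43 in small intestine and 0.56 in large intestine, while the median over all genes tested was 0.02, 0.01, -0.01, -0.02 and 0.00 in the same order of systems. Bad, Bak1, Bcl2 and Mcl1 were called in none of the 5 systems (0 calls each by limma). The intestinal calls were the least firm: with other window borders none was left in either intestine, and with each tissue fitted alone 1 was left in small intestine and 0 in large intestine. With other borders Bcl2l11 and Bid in thymus and Bbc3 in NIH3T3 also missed the threshold, at unchanged sizes. The tissues are mixtures of cells, in which fewer cells of a type and less RNA per cell cannot be told apart.

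**Figure D1:**
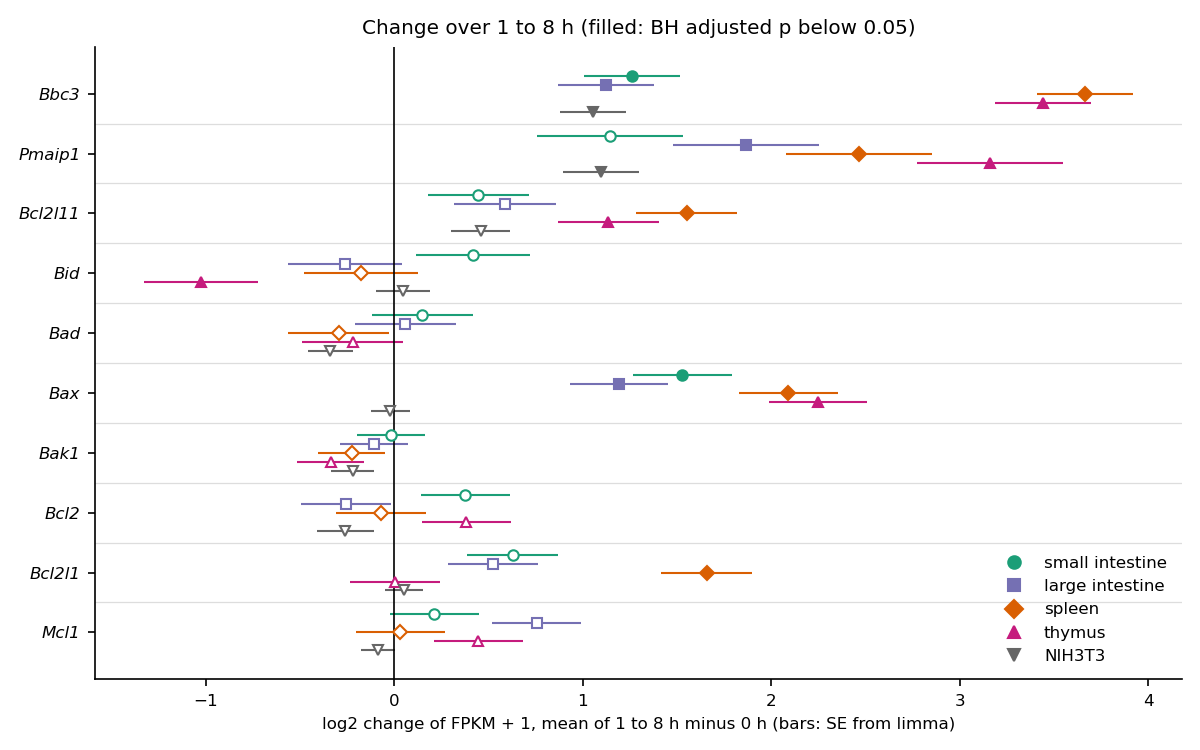
Change of each member over 1 to 8 h (mean of 8 irradiated libraries minus the 0 h library, log2 of FPKM + 1, horizontal axis) in 5 systems, with bars for the standard error from limma and filled symbols for an adjusted p below 0.05. Bbc3 lies at 3.66 in spleen and 3.44 in thymus and between 1.05 and 1.26 in the other systems, and Bax lies at -0.02 in NIH3T3.

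Bbc3 encodes Puma, a BH3-only protein that binds all the main protectors and is a classical p53 target. In spleen its level was 27.9 FPKM at the lowest, 45.6 at the median and 65.1 at the highest over the 8 irradiated libraries at 1 to 8 h, against 2.42 FPKM at 0 h. In thymus it was 23.6, 42.4 and 51 FPKM at 1 to 8 h by the same measures, against 2.63 FPKM at 0 h. The 8 irradiated libraries of each lymphoid organ thus stood far above the unirradiated one, with no overlap. Bbc3 rose by 3.66 ± 0.25 in spleen (adjusted p = 2.4e-09) and by 3.44 ± 0.25 in thymus (adjusted p = 6.27e-09).

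Bbc3 also rose in the other systems, where it stayed below 10 FPKM. Its level was 3.29 to 6.81 FPKM (median 4.49) at 1 to 8 h in small intestine, against 1.32 FPKM at 0 h, and 5.24 to 8.89 FPKM (median 6.49) in large intestine, against 2.59 FPKM at 0 h. In NIH3T3 it was 3.62 to 8.27 FPKM (median 4.16), against 1.81 FPKM at 0 h. No irradiated library of the 8 in any of these systems reached down to its 0 h library. The changes were 1.26 ± 0.25 in small intestine (adjusted p = 0.023), 1.12 ± 0.25 in large intestine (adjusted p = 0.025) and 1.05 ± 0.17 in NIH3T3 (adjusted p = 0.0114).

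The order of Bbc3 levels over 1 to 8 h put spleen and thymus at the top, with ranges that overlapped each other and lay wholly above the ranges of large intestine, small intestine and NIH3T3, which overlapped in turn. At 0 h the 5 libraries lay within 1.32 to 2.63 FPKM, so the systems differed far less before irradiation than after it. The lymphoid change exceeded the intestinal one by 2.36 ± 0.25 (limma test of the difference, adjusted p = 1.33e-05), the 1 member called of 10, where 2.83% of genes were. The comparison of NIH3T3 with the tissues was not tested, since the line had its own fit.

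The sequence before the Bbc3 start is shown because Bbc3 had the largest change of the 10 members in both lymphoid organs. The window covers 250 bases before the start, of 3 for Bbc3 in RefSeq, whose window held the closest match, at chr7:16309333-16309582 of GRCm38.p6, plus strand, written 5′ to 3′. Capitals mark the closest match in the window to the p53 consensus, which consists of 2 half-sites of equal length with at most 1 base between them and reads the same on both strands.
Bbc3 promoter: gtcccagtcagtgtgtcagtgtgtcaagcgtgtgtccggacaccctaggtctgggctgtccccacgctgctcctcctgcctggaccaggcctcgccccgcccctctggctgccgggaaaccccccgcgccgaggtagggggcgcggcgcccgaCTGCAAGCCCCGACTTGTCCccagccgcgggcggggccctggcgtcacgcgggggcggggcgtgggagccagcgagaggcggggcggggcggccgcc
The match lies 97 to 78 bases before the start, has no base between the half-sites and differs from the 20 consensus positions at 3, a closeness that 9.92% of 32851 mouse promoter windows reached or passed. That share is per single window, whereas the window shown was picked as the closest of 3. Such a match is a description of letters and not a site of binding.

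Pmaip1 encodes Noxa, a BH3-only protein that chiefly neutralizes Mcl1. In thymus its level was 34.4 to 58.1 FPKM (median 46.5) at 1 to 8 h, against 4.31 FPKM at 0 h, and it rose by 3.16 ± 0.39 (adjusted p = 1.12e-05). In spleen it was 53.6 to 84.6 FPKM (median 71.0), against 11.6 FPKM at 0 h, a rise of 2.47 ± 0.39 (adjusted p = 0.000226). In large intestine it was 17.5 to 46.2 FPKM (median 26.1), against 6.74 FPKM at 0 h, a rise of 1.86 ± 0.39 (adjusted p = 0.0136). The highest value there was that of the 2 h library, which carried enterocyte transcripts, and the 1 h library held 44.4 FPKM. The irradiated libraries of these tissues lay above the 0 h library in 8 of 8 cases each.

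Small intestine held the highest Pmaip1 level of any system before and after irradiation, but with a wide scatter. Its libraries at 1 to 8 h held 67.8 FPKM at the lowest, 109.9 FPKM at the median and 284 FPKM at the highest (4 h), against 56.5 FPKM at 0 h. All 8 lay above 0 h, yet the change of 1.14 ± 0.39 did not pass the test (adjusted p = 0.407). NIH3T3 held the lowest levels, at 2.83 to 6.99 FPKM (median 3.59) at 1 to 8 h, against 1.39 FPKM at 0 h, and Pmaip1 rose there by 1.10 ± 0.20 (adjusted p = 0.013). The lymphoid change exceeded the intestinal one by 1.31 ± 0.39, which missed the threshold (adjusted p = 0.0652, interval 0.51 to 2.11). With quantile normalization it was 1.84 and passed (adjusted p = 0.00286).

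Bcl2l11 encodes Bim, a BH3-only protein that removes lymphocytes during their normal turnover. Its level in spleen was 15.6 to 40.6 FPKM (median 25.9) at 1 to 8 h, against 8.05 FPKM at 0 h. In thymus it was 17.3 to 38.9 FPKM (median 25.4), against 11.9 FPKM at 0 h. Every irradiated library of both organs at 1 to 8 h lay above its 0 h library, and Bcl2l11 rose by 1.55 ± 0.27 in spleen (adjusted p = 0.00065) and by 1.14 ± 0.27 in thymus (adjusted p = 0.00657). Levels at 1 to 8 h were lower elsewhere, with medians of 4.72 FPKM in small intestine, 7.10 FPKM in large intestine and 3.01 FPKM in NIH3T3, and the changes of 0.45 ± 0.27, 0.59 ± 0.27 and 0.46 ± 0.15 in these 3 systems did not pass the test. The ranges of spleen and thymus overlapped and lay above those of the other systems.

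Bid, which is cut by caspases and then activates the effectors, was the only member called lower over 1 to 8 h. In thymus its level was 21.6 and 19.4 FPKM at 1 and 2 h, 9.49, 8.59 and 8.32 FPKM at 3, 4 and 5 h and 9.20, 9.19 and 10.4 FPKM at 6, 7 and 8 h, against 23.96 FPKM at 0 h. The libraries from 3 h on stood well below the first ones, and all 8 stood below 0 h. Bid fell by 1.02 ± 0.30 on the log2 scale in thymus (adjusted p = 0.0271). Without the 7 h library the change was -0.99 and no longer passed the test. In spleen the libraries lay on both sides of 0 h, at 22.8 to 66.0 FPKM (median 29.6) over 1 to 8 h against 38.3 FPKM, and neither there nor in the other systems was Bid called. The Bid gene overlaps Bcl2l13 on the opposite strand, and the libraries kept no strand, so reads from the shared stretch cannot be told apart. Bcl2l13 itself stood at 8.05 to 13.1 FPKM in thymus at 1 to 8 h, against 10.3 FPKM at 0 h, with a change of 0.03 ± 0.16.

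Bad, a BH3-only protein held in check by phosphorylation, was not called in any system over 1 to 8 h. Its changes ran from -0.34 ± 0.12 in NIH3T3 to 0.15 ± 0.27 in small intestine. Its levels separated the systems instead, with 83.3 to 122 FPKM in small intestine at 1 to 8 h, above large intestine (43.2 to 64.9 FPKM) and NIH3T3 (35.2 to 44.3 FPKM), and with thymus (13.9 to 18.7 FPKM) and spleen (11.2 to 25.9 FPKM) lowest. At 0 h the order was similar, with 96.2 FPKM in small intestine and 19.7 FPKM in both lymphoid organs. The gene overlaps Gpr137 on the opposite strand.

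**Figure D2:**
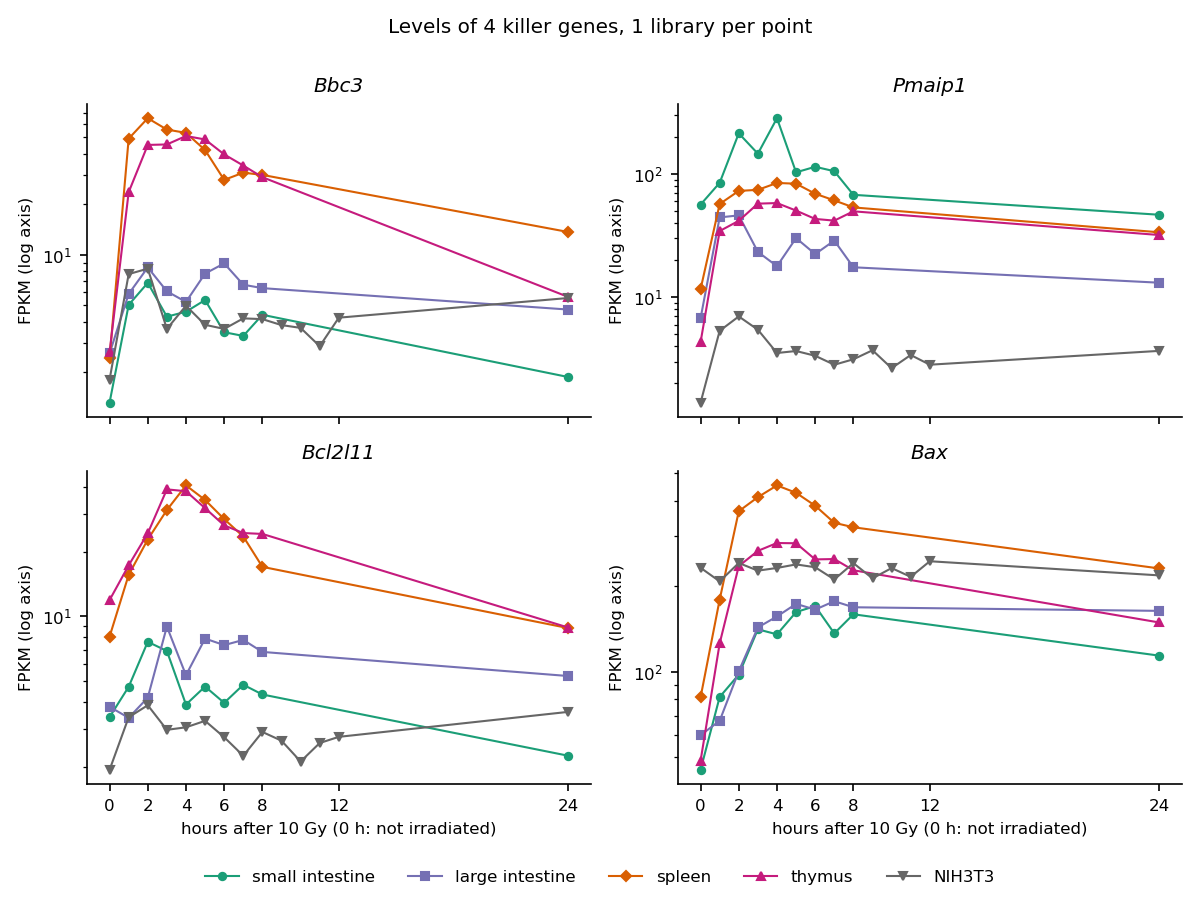
Level of Bbc3, Pmaip1, Bcl2l11 and Bax (FPKM, log axis) by hour after 10 Gy, with 1 library per point and 1 line per system; 0 h was not irradiated. Bbc3 in spleen peaks at 65.1 FPKM at 2 h, against 2.42 FPKM at 0 h, and Bax in NIH3T3 stays within 208 to 245 FPKM.

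Bax, the effector that moves to the mitochondrion and forms pores there, rose in the 4 tissues. In spleen it reached 179.6 FPKM at the lowest, 376 FPKM at the median and 454 FPKM at the highest over 1 to 8 h, against 81.2 FPKM at 0 h. In thymus it was 126, 249 and 284 FPKM at 1 to 8 h, against 48.5 FPKM at 0 h. By median these were the highest levels among the BH3-only and effector genes in each organ, and all 8 irradiated libraries of each organ lay above 0 h. Bax rose by 2.09 ± 0.26 in spleen (adjusted p = 1.69e-05) and by 2.25 ± 0.26 in thymus (adjusted p = 5.28e-06).

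The intestines showed the same direction with smaller estimates. Bax was 81.5 to 170.5 FPKM (median 139) in small intestine at 1 to 8 h, against 45.1 FPKM at 0 h, and rose by 1.53 ± 0.26 (adjusted p = 0.0045). In large intestine it was 67.2 to 177 FPKM (median 161), against 59.8 FPKM at 0 h, and rose by 1.19 ± 0.26 (adjusted p = 0.0204). The lymphoid change exceeded the intestinal one by 0.81 ± 0.26, which did not pass the test (adjusted p = 0.091, interval 0.27 to 1.35). The difference depended on scaling, at 1.23 and past the test with quantile normalization (adjusted p = 0.0198) and at 0.13 on the spike-in scale described below (adjusted p = 0.753), where the median of all genes was -0.63. The Bax gene overlaps the gene Gm45808 on its own strand, so reads from the shared stretch cannot be told apart.

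In NIH3T3 Bax was not called. Its 0 h library already held Bax at 233 FPKM, above the 0 h level of each tissue, and the irradiated libraries at 1 to 8 h held 208 to 242 FPKM (median 233), 4 above and 4 below 0 h. The change was -0.02 ± 0.10 (adjusted p = 0.921), with an interval of -0.24 to 0.20. At 9 to 12 h the level was 213 to 245 FPKM and at 24 h 219 FPKM. In the same libraries Bbc3 and Pmaip1 rose, as given above, and so did 5 of 7 further p53-related genes described below.

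The Bax window is shown because, among the 9 members with a RefSeq promoter window, it held the closest match to the p53 consensus. It covers 250 bases before the transcription start, at chr7:45466899-45467148 of GRCm38.p6, minus strand, written 5′ to 3′ with the match in capitals.
Bax promoter: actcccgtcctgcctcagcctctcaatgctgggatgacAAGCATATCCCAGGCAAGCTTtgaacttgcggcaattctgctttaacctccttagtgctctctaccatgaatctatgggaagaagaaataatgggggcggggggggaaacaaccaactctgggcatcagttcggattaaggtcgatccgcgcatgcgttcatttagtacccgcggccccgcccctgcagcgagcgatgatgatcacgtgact
The match lies 212 to 192 bases before the start, has 1 base between the half-sites and differs from the consensus at 1 of 20 positions, which 0.14% of the 32851 windows reached or passed. The closest matches of the remaining members with a window differed at 4 or 5 positions, as close as was found in 41.6% and 85.9% of all windows. The lack of a close match in these 250 bases says nothing about sites elsewhere, such as introns.

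Bak1, the other effector, was not called over 1 to 8 h in any system, and its changes lay between -0.34 ± 0.18 in thymus and -0.02 ± 0.18 in small intestine. The order of levels was nearly the reverse of that of Bax, with 147 to 196 FPKM in small intestine at 1 to 8 h, 66.7 to 111 FPKM in large intestine, 33.3 to 41.7 FPKM in NIH3T3, 19.7 to 28.1 FPKM in spleen and 16.3 to 32.0 FPKM in thymus. The first 4 of these ranges did not overlap, while spleen and thymus did. Under quantile normalization the thymus change was -0.49 and passed the test. The gene overlaps Ggnbp1 on the opposite strand.

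Since both genes are read from the same library, the ratio of Bax to Bak1 does not depend on how a library was scaled. In spleen it was 8.01 to 21.9 (median 17.8) at 1 to 8 h, against 3.04 at 0 h, and in thymus 6.0 to 16.4 (median 10.0), against 1.67 at 0 h. In small intestine it was 0.436 to 1.16 (median 0.870), against 0.269 at 0 h, so Bak1 stood above Bax per length in 5 of those 8 libraries. Large intestine had 0.905 to 2.33 (median 1.85), against 0.662 at 0 h, and NIH3T3 5.45 to 6.42 (median 5.97), against 5.20 at 0 h. The irradiated libraries lay above 0 h in 8 of 8 cases in each system, by a wide gap in the tissues and a narrow one in NIH3T3.

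Bcl2l1, whose main product Bcl-xL protects cells by holding the effectors and BH3-only proteins, was the only protector called over 1 to 8 h, in spleen. In spleen its level was 62.0 and 46.5 FPKM at 1 and 2 h, 32.9, 40.1 and 35.7 FPKM at 3, 4 and 5 h and 47.3, 47.0 and 46.4 FPKM at 6, 7 and 8 h, against 13.3 FPKM at 0 h. All 8 irradiated libraries were far above 0 h, and the highest was the first. Bcl2l1 rose by 1.66 ± 0.24 (adjusted p = 0.0001), close in size to the change of 1.55 in Bcl2l11.

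In thymus Bcl2l1 behaved otherwise. Its level was 26.6 and 39.6 FPKM at 1 and 2 h, 40.9, 46.9 and 57.3 FPKM at 3, 4 and 5 h and 50.7, 55.7 and 47.6 FPKM at 6, 7 and 8 h, against 44.5 FPKM at 0 h. The first libraries were below 0 h and most later ones above it, and the change over 1 to 8 h was 0.00 ± 0.24 (adjusted p = 0.996). The thymus change was smaller than the spleen change by 1.65 (limma difference -1.65 ± 0.34, adjusted p = 0.0282), where 0.386% of genes tested were called. That call was lost when the windows were cut at other hours, and also when hour was added to the fit as a block. The levels of the irradiated libraries themselves overlapped, at 32.9 to 62.0 FPKM in spleen and 26.6 to 57.3 FPKM in thymus, so the organs differed mainly in the unirradiated library, of which there was 1 each.

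In the intestines and NIH3T3, Bcl2l1 was not called. Its level in small intestine was 50.6 to 81.7 FPKM at 1 to 8 h, against 41.5 FPKM at 0 h (change 0.63 ± 0.24, adjusted p = 0.554), and in large intestine 21.3 to 34.0 FPKM, against 18.7 FPKM at 0 h (change 0.52 ± 0.24, adjusted p = 0.325). All 8 irradiated libraries of each intestine lay above 0 h, but by less than the fit required. NIH3T3 held 52.0 to 61.5 FPKM, against 54.2 FPKM at 0 h.

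Bcl2, the founding protector, had the lowest median level of the 10 genes at 1 to 8 h in small intestine, large intestine, spleen and NIH3T3, and the second lowest in thymus. Over 1 to 8 h it held 6.82 to 13.7 FPKM (median 11.7) in thymus, against 7.65 FPKM at 0 h, and 7.11 to 13.5 FPKM (median 9.91) in spleen, against 10.5 FPKM at 0 h. These lymphoid ranges overlapped each other and lay above those of NIH3T3 (1.76 to 2.51 FPKM), small intestine (0.928 to 2.1 FPKM) and large intestine (1.06 to 2.07 FPKM). The changes ran from -0.26 in large intestine and NIH3T3 to 0.38 in small intestine and thymus, and none passed the test. The gene overlaps an antisense transcript, whose reads cannot be told apart from its own without strand.

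Mcl1 encodes a short-lived protector that Pmaip1 targets. It held 149 to 217 FPKM in small intestine, 122 to 201 FPKM in spleen, 122 to 268 FPKM in large intestine, 79.6 to 172 FPKM in thymus and 50.6 to 57.1 FPKM in NIH3T3 at 1 to 8 h, with overlap among the tissues and none with NIH3T3. Its 0 h levels were 159, 158, 91.1, 87.6 and 56.3 FPKM in the same order. The largest change, 0.76 ± 0.24 in large intestine, did not pass the test (adjusted p = 0.118). There the 1 h library held 268 FPKM, against 91.1 FPKM at 0 h and 122 to 177 FPKM in the other irradiated libraries at 2 to 8 h. Without the 1 h library the change was 0.64, and without the 2 h library, which carried enterocyte transcripts, 0.80, and in both cases it passed the test.

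**Figure D3:**
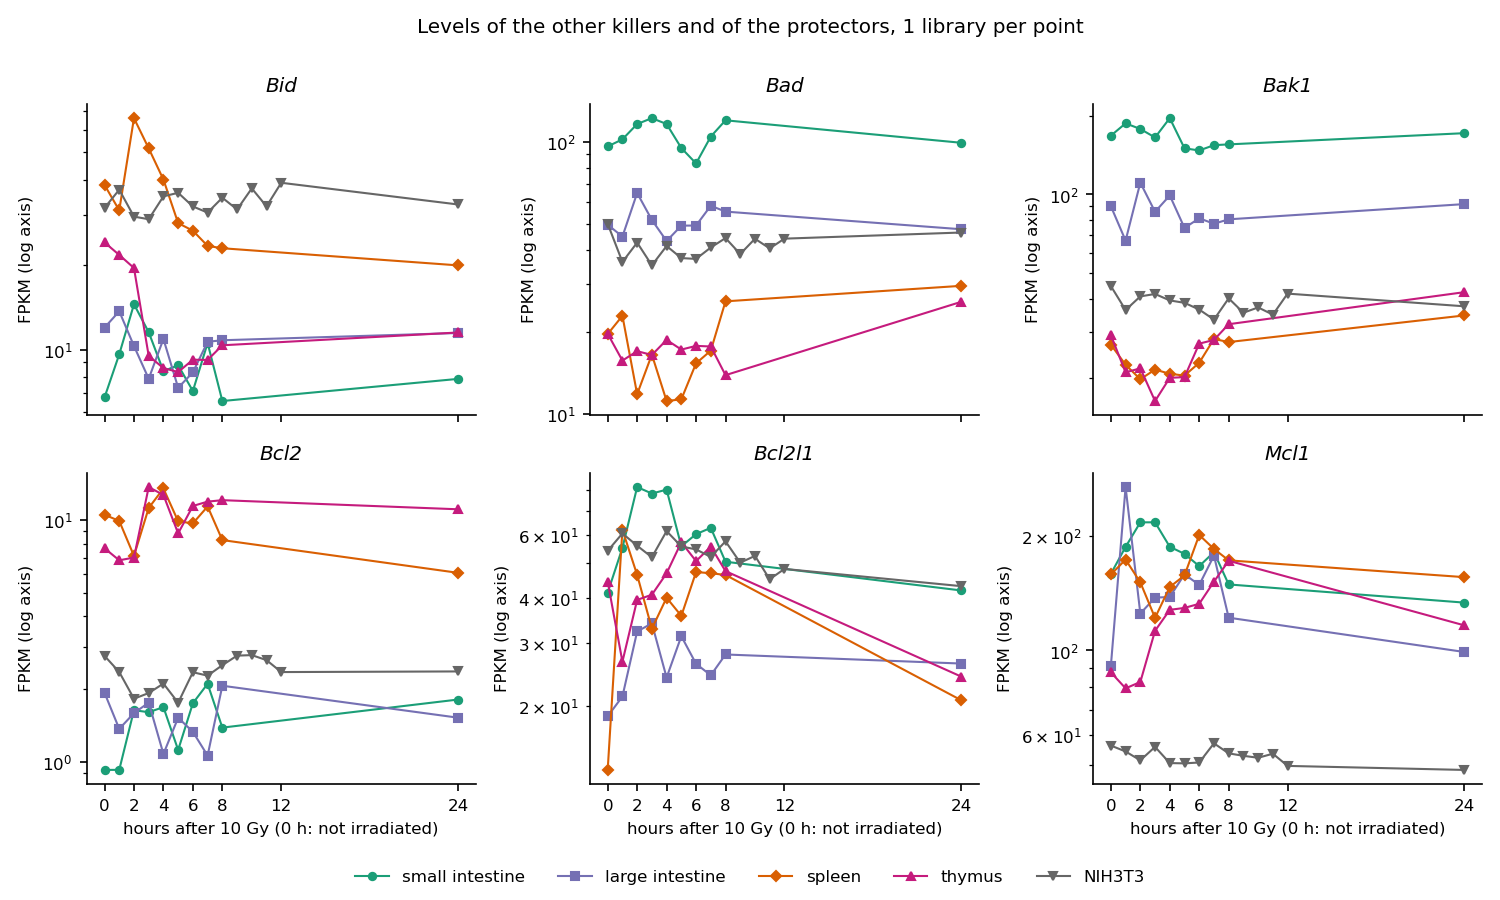
Level of Bid, Bad, Bak1, Bcl2, Bcl2l1 and Mcl1 (FPKM, log axes that differ between panels) by hour after 10 Gy, with 1 library per point; 0 h was not irradiated. Bid in thymus lies between 8.32 and 10.4 FPKM from 3 to 8 h, against 23.96 FPKM at 0 h, and Bcl2l1 in spleen lies at 62.0 FPKM at 1 h, against 13.3 FPKM at 0 h.

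The ratio of Bax to Bcl2, an effector set against a protector within the same library, also lay above 0 h in 8 of 8 irradiated libraries at 1 to 8 h in each system. It was 18.1 to 51.7 (median 37.9) in spleen, against 7.71 at 0 h, and 18.4 to 33.7 (median 21.3) in thymus, against 6.34 at 0 h. In small intestine it was 59.7 to 145 (median 87.8), against 48.7 at 0 h, and in large intestine 49.0 to 167 (median 97.8), against 30.9 at 0 h. NIH3T3 had 88.4 to 136 (median 105), against 84.7 at 0 h, but 77.5, 83.9, 81.9 and 104 at 9, 10, 11 and 12 h. Outside the lymphoid organs the divisor Bcl2 stood at the low levels given above, so small shifts in it move the ratio. The lymphoid organs had the lowest ratios at 0 h and at 1 to 8 h, with Bcl2 highest there.

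**Figure D4:**
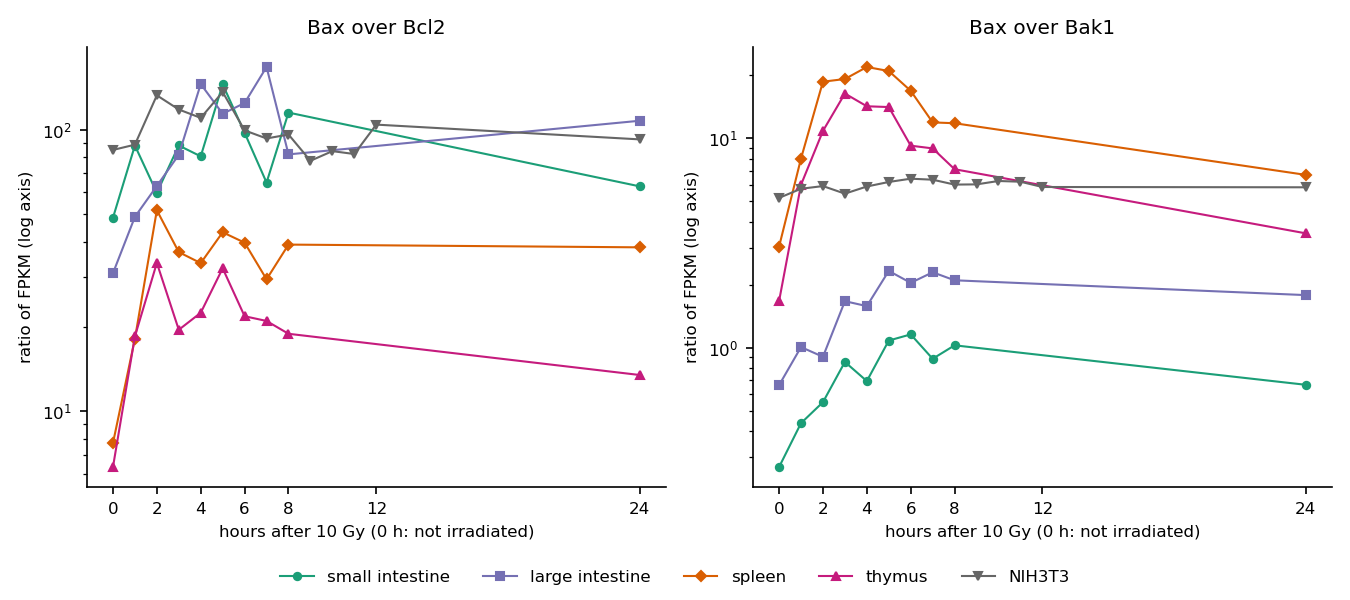
Ratio of FPKM of Bax over Bcl2 (left) and Bax over Bak1 (right) by hour after 10 Gy on log axes, with 1 library per point; 0 h was not irradiated. Bax over Bak1 in spleen reaches 21.9 at 4 h, against 3.04 at 0 h, while small intestine stays between 0.436 and 1.16 at 1 to 8 h.

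Ratios of the messenger RNA of a BH3-only gene to that of a protector its protein binds moved in the same way. Pmaip1 over Mcl1 was 0.276 to 0.510 (median 0.412) in thymus at 1 to 8 h, against 0.0492 at 0 h, and 0.311 to 0.611 (median 0.414) in spleen, against 0.0734 at 0 h. Bbc3 over Bcl2l1 was 0.609 to 1.14 (median 0.868) in thymus, against 0.0591 at 0 h, and 0.591 to 1.70 (median 0.985) in spleen, against 0.183 at 0 h. Outside the lymphoid organs Bbc3 over Bcl2l1 was 0.0523 to 0.0964 (median 0.0704) in small intestine, against 0.0318 at 0 h, 0.178 to 0.339 (median 0.254) in large intestine, against 0.138, and 0.0662 to 0.148 (median 0.0761) in NIH3T3, against 0.0333. The irradiated libraries were above 0 h in 8 of 8 cases for both ratios in all 5 systems. Pmaip1 over Mcl1 had its highest median, 0.628, in small intestine, against 0.356 at 0 h.

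Timing within the first 8 h was read from the windows. Between 1 to 2 h and 3 to 5 h, Bcl2l11 and Bax were the members that rose in large intestine, spleen and thymus. In spleen Bcl2l11 held 31.2, 40.6 and 34.8 FPKM at 3 to 5 h, against 15.6 and 22.8 FPKM at 1 to 2 h, and rose by 0.87 ± 0.23 (adjusted p = 0.0242). In thymus it held 38.9, 38.2 and 31.9 FPKM at 3 to 5 h, against 17.3 and 24.3 FPKM at 1 to 2 h, and rose by 0.79 ± 0.23 (adjusted p = 0.029). In large intestine it held 8.97, 5.33 and 7.89 FPKM at 3 to 5 h, against 3.38 and 4.19 FPKM at 1 to 2 h, and rose by 0.79 ± 0.23 (adjusted p = 0.0354). The later window lay above the earlier one without overlap in these 3 tissues.

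Bax followed the same course. It held 413, 454 and 427 FPKM in spleen at 3 to 5 h, against 179.6 and 368 FPKM at 1 to 2 h, a rise of 0.74 ± 0.23 (adjusted p = 0.0491). It held 267, 284 and 284 FPKM in thymus at 3 to 5 h, against 126 and 236 FPKM at 1 to 2 h, a rise of 0.69 ± 0.23 (adjusted p = 0.0486). In large intestine it held 143, 157 and 173.5 FPKM at 3 to 5 h, against 67.2 and 100.4 FPKM at 1 to 2 h, a rise of 0.93 ± 0.23 (adjusted p = 0.012). The 2 h library there, also part of the Bcl2l11 step, carried enterocyte transcripts. The 1 h library was the lowest in each case. Without it the change in Bax was 0.23 in spleen, 0.24 in thymus and 0.64 in large intestine, and that in Bcl2l11 was 0.61, 0.55 and 0.67, and none of the 6 passed the test. Leaving out 1 library of the later window also ended calls at nearly unchanged sizes. In thymus Bax was 0.72, 0.67 and 0.67 and Bcl2l11 0.74, 0.75 and 0.88 without the 3, 4 or 5 h library. In spleen Bax was 0.77, 0.71 and 0.75 without these libraries, and Bcl2l11 was 0.77 and 0.88 without the 4 or 5 h library. In large intestine Bcl2l11 was 0.65 and 0.74 without the 3 or 5 h library and Bax was 0.86 without the 5 h library, so these steps sit at the edge of the threshold.

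Thymus had 2 further calls in that step. Bcl2 held 13.7, 12.7 and 8.81 FPKM at 3 to 5 h, against 6.82 and 7.0 FPKM at 1 to 2 h, and rose by 0.67 ± 0.20 (adjusted p = 0.0363). Bid fell by 1.14 ± 0.26 on the log2 scale (adjusted p = 0.00678) between libraries that did not overlap, as given above. Both were lost without the 1 h library, at 0.65 for Bcl2 and -1.06 for Bid, and Bcl2 also without the 2, 3 or 4 h library, at 0.68, 0.55 and 0.60. Without the 2 h library Bbc3 and Bcl2l1 passed the test in thymus, at 1.00 and 0.83, and Mcl1 did in large intestine, at -0.89. In all, 4 of 10 members were called in this step in thymus (background 11.5%), 2 in spleen (6.34%), 2 in large intestine (8.14%), 0 in small intestine (0.141%; 1012 genes of 11351 at an unadjusted p under 0.05) and 0 in NIH3T3 (0.00967%; 1130 genes of 10344 so). The shares of members in large intestine, spleen and thymus rest on 2 to 4 genes each.

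The thymus steps depended on scaling. After each library was divided by the sum of its spike-in controls, which are described below, the change was -0.05 for Bcl2l11, -0.18 for Bax and -0.12 for Bcl2 in thymus and 0.37 for Bcl2l11 and 0.22 for Bax in spleen, and none of these passed the test, while Bid in thymus was -1.96 and did. The median over all genes in this step was then -0.72 in thymus and -0.47 in spleen. Relative to it Bcl2l11 stood at 0.67, Bax at 0.54, Bcl2 at 0.60 and Bid at -1.24 in thymus, and Bcl2l11 at 0.85 and Bax at 0.70 in spleen.

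Bbc3 in NIH3T3 was highest first, with 3.62, 4.98 and 3.83 FPKM at 3 to 5 h, against 7.68 and 8.27 FPKM at 1 to 2 h. The change of -0.81 ± 0.15 did not pass the test (adjusted p = 0.125), though the windows did not overlap.

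Between 3 to 5 h and 6 to 8 h, Bbc3 and Bcl2l11 fell in spleen. Bbc3 held 27.9, 30.9 and 29.9 FPKM at 6 to 8 h, against 55.7, 53.2 and 42.1 FPKM at 3 to 5 h, and fell by 0.74 ± 0.20 on the log2 scale (adjusted p = 0.0153). Bcl2l11 held 28.3, 23.5 and 17.0 FPKM at 6 to 8 h, against 31.2, 40.6 and 34.8 FPKM at 3 to 5 h, and fell by 0.63 ± 0.21 (adjusted p = 0.0443). The later libraries lay below the earlier ones for both genes. These calls depended on single libraries, since Bbc3 changed by -0.66 without the 3 h library and -0.69 without the 4 h library, and Bcl2l11 by -0.72, -0.53, -0.64, -0.66 and -0.44 without the 3, 4, 5, 7 or 8 h library, and none of these passed the test. Bid changed by -0.66 in spleen and did not pass, but without the 5 h library it was -0.89 and did. Without the 6 h library, which carried the pancreatic transcripts, and the 2 h large intestine library, Bad and Bak1 passed the test in spleen, at 0.68 and 0.40.

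In thymus Bak1 rose in that step. It held 27.0, 27.9 and 32.0 FPKM at 6 to 8 h, against 16.3, 19.98 and 20.1 FPKM at 3 to 5 h, with a change of 0.60 ± 0.14 (adjusted p = 0.0044), but of 0.04 on the spike-in scale, which did not pass the test and stood at 0.53 relative to the median of all genes. The background was 13.8% in spleen and 16.8% in thymus, so 2 of 10 and 1 of 10 members are close to the share of all genes. No member was called in small intestine (0 by limma; background 0.0705%, 939 genes at an unadjusted p under 0.05), large intestine (0; 0.0169%, 819 genes) or NIH3T3 (0; background 0%, 1267 genes). In NIH3T3 0 members were called between 6 to 8 h and 9 to 12 h as well (background 0%, 588 genes at an unadjusted p under 0.05).

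Differences between tissues were tested in the shared fit. Beyond Bbc3, the lymphoid minus intestinal difference was 0.83 ± 0.27 for Bcl2l11 (adjusted p = 0.0926, interval 0.27 to 1.38; 1.00 and past the test with quantile normalization), -0.68 ± 0.30 for Bid (adjusted p = 0.233) and between -0.36 and 0.25 for Bad, Bak1, Bcl2, Bcl2l1 and Mcl1. On the spike-in scale, where the median of all genes was -0.63, the difference was 1.78 for Bbc3 and passed the test, and it was 0.70 for Pmaip1 and 0.16 for Bcl2l11 and did not. Relative to that median these were 2.41, 1.33 and 0.79, and Bax stood at 0.75. The difference in Bax passed the test at 0.80 to 0.88 without the 1 or 2 h library of spleen or thymus, and that in Pmaip1 at 1.27 to 1.39 without the 1, 2 or 4 h library of small intestine or the 1 or 2 h library of large intestine. Large intestine minus small intestine gave 0 calls (background 0.137%, 921 genes at an unadjusted p under 0.05), with member differences from -0.68 ± 0.43 for Bid to 0.72 ± 0.55 for Pmaip1. For Bbc3 that difference was -0.14 ± 0.36, with an interval of -0.89 to 0.60.

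By 24 h, Bax was the member furthest from 0 h in both intestines. With 1 library at each time there is no test, and a change of at least 2-fold on the scale of FPKM + 1 was counted. Bax held 114 FPKM at 24 h in small intestine, against 45.1 FPKM at 0 h (log2 change 1.32), and 164 FPKM in large intestine, against 59.8 FPKM (1.44). It held 231 FPKM in spleen, against 81.2 FPKM (1.5), and 149 FPKM in thymus, against 48.5 FPKM (1.60). Bax was thus the member past 2-fold in all 4 tissues, and in NIH3T3 it held 219 FPKM, against 233 FPKM.

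The BH3-only genes lay at different distances from 0 h by then. Bbc3 held 13.7 FPKM at 24 h in spleen, against 2.42 FPKM at 0 h (2.1), but 5.62 FPKM in thymus, against 2.63 FPKM (0.87). Pmaip1 held 32.0 FPKM in thymus, against 4.31 FPKM (2.63), and 33.7 FPKM in spleen, against 11.6 FPKM (1.46). Bcl2l11 was back near its 0 h level, at 8.83 FPKM in spleen, against 8.05 FPKM, and 8.88 FPKM in thymus, against 11.9 FPKM. Bid was lower in both organs but short of the 2-fold mark on the scale of FPKM + 1. It held 11.5 FPKM in thymus, against 23.96 FPKM at 0 h (-0.999), and 19.9 FPKM in spleen, against 38.3 FPKM (-0.913). Without the added 1, Bid in thymus would be past 2-fold lower, and Bbc3 in thymus and Pmaip1 in NIH3T3 past 2-fold higher. In NIH3T3 Bbc3 held 5.53 FPKM, against 1.81 FPKM (1.22).

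In counts on the scale of FPKM + 1, 3 members were past 2-fold in spleen (background 19.6%) and 2 in thymus (35.5%). There was 1 each in NIH3T3 (2.74%), small intestine (3.40%) and large intestine (4.28%), and all were higher. The median of the 10 members was 0.46 in spleen and 0.44 in thymus at 24 h, against 0.09 and 0.14 over all genes tested. In thymus 35.5% of genes passed this mark, so the 2 members there are below the background share. That library also held the enterocyte transcripts named above, whose part in these values was not tested.

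Cell type markers moved in the same libraries. The summed level of 10 B cell markers in spleen was 478 to 2348 FPKM at 1 to 8 h and 434 FPKM at 24 h, against 3032 FPKM at 0 h. That of 8 neutrophil markers was 617 to 13204 FPKM at 1 to 8 h, against 874 FPKM at 0 h. Other spleen lists moved as well. T cell markers summed to 239 to 410 FPKM at 1 to 8 h, against 576 FPKM at 0 h, and erythroid markers lay above 0 h in 1 of 8 libraries. Macrophage markers lay above 0 h in 7 of 8 libraries and smooth muscle markers in 8 of 8. In thymus 10 T cell markers summed to 1119 to 2417 FPKM at 1 to 8 h and 381 FPKM at 24 h, against 2611 FPKM at 0 h, with 0 of 8 libraries above 0 h. The sum of 5 immature thymocyte markers there was 402 to 1012 FPKM at 1 to 8 h, against 1029 FPKM at 0 h. Both of these thymus lists were thus lower in every irradiated library at 1 to 8 h. So were 10 B cell markers there (56.0 to 89.4 FPKM, against 142 FPKM at 0 h) and 8 fibroblast markers (439 to 676 FPKM, against 785 FPKM). Erythroid markers lay above 0 h in 1 of 8 thymus libraries. Several other lists were higher. In thymus 8 neutrophil markers summed to 151 to 1857 FPKM, against 118 FPKM at 0 h, 8 epithelial markers to 399.8 to 2774 FPKM, against 329 FPKM, and 6 smooth muscle markers to 37.1 to 764 FPKM, against 34.6 FPKM, each above 0 h in 8 of 8 libraries and highest at 8 h. Macrophage markers (9 genes) summed to 569.6 to 1293 FPKM there, against 587 FPKM at 0 h, with 7 of 8 above. The part of these shifts in the member changes was not tested.

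The matrix also held 41 entries for ERCC spike-in controls, synthetic RNAs that are added to samples as a yardstick. No label mentions them, and no source used here says whether each library received the same amount. Their summed level in thymus was 25892, 32447 and 31906 FPKM at 6, 7 and 8 h, against 9436 FPKM at 0 h, and in spleen 29062, 33118 and 35474 FPKM at the same hours, against 12820 FPKM at 0 h. That is 2.74 to 3.44 times the 0 h value in thymus and 2.27 to 2.77 times in spleen, while over 1 to 8 h the factor was 1.08 to 1.48 in small intestine, 0.930 to 1.19 in large intestine and 0.590 to 0.936 in NIH3T3. In thymus the factor was already 2.21, 1.97 and 2.16 at 3, 4 and 5 h, and in spleen it was 0.979, 1.81 and 1.49 at these hours. At 24 h it was 1.42 in thymus and 1.10 in spleen. The lymphoid libraries of 6 to 8 h were thus the furthest from 0 h by this measure, but the shift began earlier.

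Dividing each library by its spike-in sum, a choice made after the data were seen, moved all genes together. The median change over 1 to 8 h became -0.56 in spleen and -0.95 in thymus over all genes tested, and 30.7% and 68.0% of genes were called. On that scale Bbc3 still rose by 3.15 in spleen and 2.57 in thymus, Pmaip1 by 1.84 and 2.22, and Bax by 1.43 and 1.18, and all 6 passed the test. Bcl2l11 rose by 0.95 in spleen but changed by 0.12 in thymus, where it no longer passed. Bcl2l1 rose by 1.03 in spleen, whereas in thymus its change of -1.06 was called lower and stood at -0.11 relative to the median of all genes.

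Members near the median of all genes gained calls with it. Bak1 changed by -0.87 in spleen and -1.39 in thymus and Bad by -0.92 and -1.25, in the direction they had without the spike-ins, and these 4 values passed the test on that scale. Relative to the median of all genes on that scale, Bak1 stood at -0.31 in spleen and -0.44 in thymus, Bad at -0.37 and -0.30, Bbc3 at 3.71 and 3.52 and Bax at 1.99 and 2.13, close to the changes without the spike-ins. The rises of Bbc3, Pmaip1 and Bax in the lymphoid organs therefore held on both scales. Bad and Bak1 in both organs and Bcl2l1 in thymus were called on the spike-in scale but not from FPKM as deposited. In the intestines and NIH3T3 the background on that scale was 0.0969% in small intestine, 0.508% in large intestine and 1.97% in NIH3T3, with 0, 1 and 2 members called, and the median change of all genes was -0.29, -0.05 and 0.34.

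**Figure D5:**
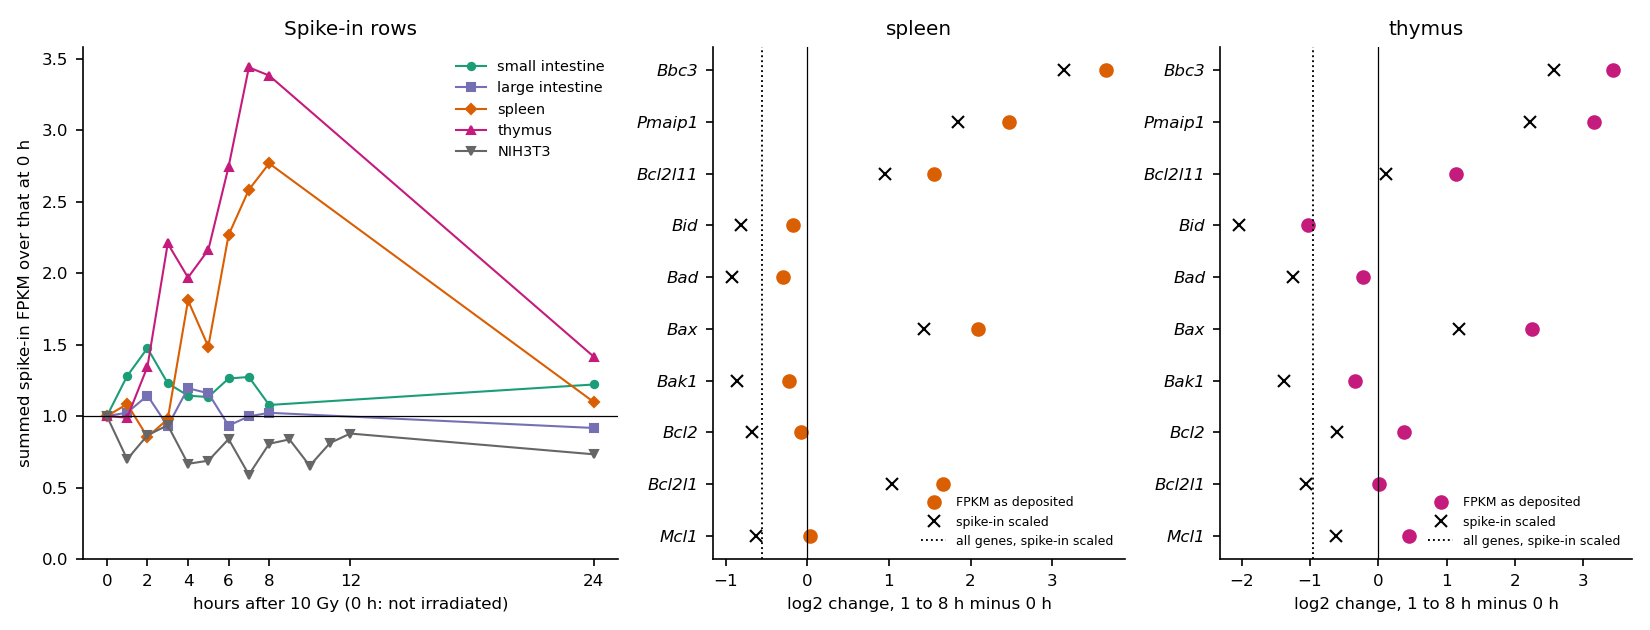
Summed FPKM of the spike-in entries over the 0 h value by hour (left), and log2 change of each member over 1 to 8 h in spleen (middle) and thymus (right) from FPKM as deposited (filled circles) and after spike-in scaling (crosses), with the median of all genes on the second scale as a dotted line. The thymus factor reaches 3.44 at 7 h, and Bbc3 stays the highest member on both scales in both organs.

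Further genes of the family were called over 1 to 8 h in the lymphoid organs only. Of 16 listed relatives, 10 to 12 were tested in each tissue and 7 in NIH3T3. In spleen 3 of 12 were called (8.68% of all genes tested) and in thymus 3 of 12 (11.9%), shares that rest on 3 genes each. None was called in small intestine (0 by limma, background 0.317%), large intestine (0, 1.51%) or NIH3T3 (0, 4.61%). In spleen the BH3-only gene Bmf fell to 3.66 to 5.58 FPKM at 1 to 8 h, against 9.59 FPKM at 0 h (change -0.95 ± 0.22, adjusted p = 0.00863). Of 3 protector genes of the A1 group tested there, 2 rose, with Bcl2a1b at 120 to 262 FPKM, against 60.5 FPKM at 0 h (1.31 ± 0.30, adjusted p = 0.00747), and Bcl2a1d by 1.00 ± 0.28 (adjusted p = 0.0293), while the change of 0.85 in Bcl2a1a did not pass the test (adjusted p = 0.131). In thymus Bcl2a1a, Bcl2a1b and Bcl2a1d rose by 1.22, 1.13 and 1.11. These copies are nearly identical in sequence, so reads can be split between them and the value of each is uncertain. After division by the spike-in sums Bmf fell by 1.54 on the log2 scale in spleen and was called, while Bcl2a1a, Bcl2a1b and Bcl2a1d were at 0.22, 0.66 and 0.36 in spleen and 0.34, 0.08 and 0.14 in thymus and none passed the test. Relative to the median of all genes on that scale these were 0.78, 1.22 and 0.92 in spleen and 1.29, 1.03 and 1.09 in thymus.

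Downstream of the mitochondrion, Apaf1, the adaptor that cytochrome c activates, rose in the lymphoid organs. Apaf1 held 15.3 to 40.2 FPKM in spleen at 1 to 8 h, against 6.35 FPKM at 0 h, and 21 to 51.5 FPKM in thymus, against 9.56 FPKM at 0 h. All 8 irradiated libraries of each organ lay above 0 h, and Apaf1 rose by 1.95 ± 0.30 in spleen (adjusted p = 0.000179) and 1.88 ± 0.30 in thymus (adjusted p = 0.000251). Of the 15 genes counted for this step, 2 rose in spleen (Apaf1 and the caspase inhibitor Birc2 by 0.53) and 3 rose in thymus (Apaf1, Birc2 by 0.58 and its relative Birc3 by 0.79), and none fell. Over all genes 8.68% were called in spleen and 11.9% in thymus, so these counts are not far from the background. None was called in small intestine (0 by limma, background 0.317%), large intestine (0, 1.51%) or NIH3T3 (0, 4.61%). The lymphoid minus intestinal difference passed the test for Apaf1, at 1.3 ± 0.30 (adjusted p = 0.0198), and for Birc2, at 0.47 ± 0.12 (adjusted p = 0.0379). On the spike-in scale Apaf1 still rose by 1.36 in spleen and 0.87 in thymus, but Birc2 in spleen (-0.11) and Birc2 (-0.47) and Birc3 (-0.26) in thymus did not pass the test, and neither did the tissue differences of Apaf1 (0.67) and Birc2 (-0.20). Relative to the median of all genes on that scale Birc2 stood at 0.45 in spleen and 0.48 in thymus, Birc3 at 0.69 in thymus and the tissue differences at 1.29 and 0.42.

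Among 7 further p53-related genes, over 1 to 8 h, 6 rose in spleen (8.68% of all genes called), 6 in thymus (11.9%), 5 in large intestine (1.51%), 3 in small intestine (0.317%) and 5 in NIH3T3 (4.61%), and on the spike-in scale Mdm2 in thymus (0.56) and Cdkn1a in large intestine (1.39) no longer passed. Cdkn1a, the gene of the cell cycle brake p21, had a lymphoid minus intestinal difference of 3.59 ± 0.36 (adjusted p = 5.38e-06), against 2.36 for Bbc3. In NIH3T3, where Bax was not called, Cdkn1a held 156 to 291 FPKM at 1 to 8 h, against 89.7 FPKM at 0 h, and rose by 1.12 ± 0.12 (adjusted p = 0.000436). Mdm2, the ligase that degrades p53, held 43.5 to 98.2 FPKM there, against 30.2 FPKM at 0 h, and was highest at 1 and 2 h, as Bbc3 was.

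The members' courses were compared over the 54 libraries after the mean of each system was removed. Bbc3 was most alike to Pmaip1 (Pearson r = 0.80), Bcl2l11 (0.78) and Bax (0.73) among the members, and the lowest value among pairs was -0.55 for Bcl2l11 and Bak1. Among the 8983 genes that passed the FPKM floor in all 5 systems, those most alike to Bbc3 were Fam212b (0.92), Sesn2 (0.91) and Slc19a2 (0.90), and those most alike to Bax were Ei24 (0.92), Psrc1 (0.91) and Glipr1 (0.91). Pmaip1 was closest to Polk (0.82), Bcl2l11 to Rab40c (0.86) and Bak1 to Rab5c (0.81). Bcl2l1 (Hipk3, 0.72), Mcl1 (Cd9, 0.79), Bid (Fkbp4, 0.73), Bad (Ergic3, 0.70) and Bcl2 (Fam102a, 0.55) had less close partners. The points share libraries, scaling and the 0 h library of each system, so these values describe likeness only.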

How the data were processed

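Per the submitters' processing notes, the authors aligned reads with TopHat2 2.1.0 to the mouse build mm10 and computed levels with Cufflinks 2.1.1. Each deposited value is the FPKM of a gene in a library, normalized for length and depth, from polyadenylated RNA without strand. No source used here gives total fragments. No sample columns were left out. The 41 spike-in entries were kept out of all tests.

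Here log2(FPKM + 1) was modelled with limma 3.58.1 in R 4.3.3 (trended empirical Bayes, windows of hours as groups) over genes whose mean FPKM was 1 or more, with 1 fit for the 40 tissue libraries and 1 for the 14 NIH3T3 libraries, Benjamini-Hochberg adjustment over all genes tested and intervals at 95%. Adding 1 understates changes of low genes. The scripts were tested on simulated data. The members and gene lists were chosen with earlier results of these data known, and 1 listed gene is not reported here. Named genes were the 10 members, called genes of the lists and, for likeness, the genes with the highest Pearson r. Genes that a result turns on were also named, such as Bcl2l13, Cdkn1a and Mdm2. Promoter windows came from RefSeq GRCm38.p6 and overlaps from GENCODE, and 9 of the 10 members had a window. Spike-in scaling was an alternative chosen after seeing the data. Other alternatives were a pseudocount of 0.1, no filter, quantile normalization, a fit per tissue, other window borders, a block by hour and libraries left out.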

Additional observations from a re-analysis of the deposited data

Results flagged for a closer look

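For Bbc3 the change over 1 to 8 h differed between the lymphoid organs and the intestines by 2.36 ± 0.25 on the log2 scale (limma, adjusted p = 1.33e-05). The level at 1 to 8 h lay above 0 h in 8 of 8 libraries in each of the 4 tissues.

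For Bcl2l1 the change differed between thymus and spleen by -1.65 ± 0.34 (limma, adjusted p = 0.0282, interval -2.36 to -0.95). With other window borders, or with hour as a block, this difference no longer passed the test. In spleen 8 of 8 libraries lay above 0 h, and in thymus 5 of 8 did. Each organ had 1 library at 0 h, 44.5 FPKM in thymus and 13.3 FPKM in spleen, and the error of those libraries could not be measured.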

How the results depend on the processing

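Over the alternatives other than leaving out 1 library, 1053 results for single members stayed on their side of the threshold. Of the rest, 43 lost a call, 37 gained one and 7 reversed, meaning a change of sign with a call before or after. Changes of sign without any call were counted among the 1053. Bcl2 over 1 to 8 h in thymus, for example, was 0.38 from FPKM as deposited and -0.60 after spike-in scaling. The 7 reversals came with spike-in scaling, which shifted all genes together. Bcl2l1 over 1 to 8 h in thymus was -1.06 (median of all genes -0.95), the step to 3 to 5 h in thymus was -0.0497 for Bcl2l11, -0.74 for Bad, -0.18 for Bax and -0.12 for Bcl2 (median -0.72), and the step to 6 to 8 h in spleen was -0.53 for Bak1 and -0.48 for Bcl2l1 (median -0.72). Relative to these medians Bcl2l11 (0.67), Bax (0.54), Bcl2 (0.60), Bak1 (0.19) and the step of Bcl2l1 (0.24) kept their sign, and Bcl2l1 over 1 to 8 h (-0.11) and Bad (-0.02) did not. Members called over 1 to 8 h against 0 h numbered 0 in small intestine with quantile normalization, spike-in scaling or other window borders and 1 with a separate fit. In large intestine they numbered 1 with spike-in scaling and 0 with a separate fit or other borders, and other borders left 3 in thymus and 1 in NIH3T3. In the step to 3 to 5 h, spleen had 1 with a pseudocount of 0.1, no filter or quantile normalization and 0 with a separate fit, thymus had 2 with the pseudocount of 0.1, and large intestine had 1 with quantile normalization and 0 with spike-in scaling or a separate fit. In the step to 6 to 8 h, spleen had 1 with the pseudocount of 0.1, no filter or a separate fit, 8 with spike-in scaling (69.5% of all genes called) and 4 without both the spleen library at 6 h and the large intestine one at 2 h (13.1%), and thymus had 3 with quantile normalization (25.2%), 4 with spike-in scaling (42.9%) and 2 with a separate fit (15.7%). The lymphoid minus intestinal difference had 4 with quantile normalization (6.05%) and 5 with spike-in scaling (35.0%), and the thymus minus spleen difference 0 with other borders. At 24 h, members past 2-fold numbered 4 in thymus with the pseudocount of 0.1, quantile normalization or spike-in scaling (40.5% to 41.3% of all genes), and 2 in NIH3T3 with that pseudocount (4.94%) or spike-in scaling (7.41%). The cause of these shifts was not tested.

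Leaving out 1 library at a time gave 3 to 4 calls in large intestine, 4 to 5 in thymus, 5 in spleen, 2 in small intestine and 2 in NIH3T3 over 1 to 8 h. The step to 3 to 5 h had 0 to 3 in large intestine, 0 to 2 in spleen, 0 to 5 in thymus and 0 elsewhere, and the step to 6 to 8 h 0 to 2 in spleen, 1 in thymus and 0 elsewhere. The tissue differences had 1 to 2 for lymphoid minus intestinal, 1 for thymus minus spleen and 0 for large minus small intestine, and the step to 9 to 12 h in NIH3T3 had 0. The 0 h library could not be left out. With hour as a replicate block, the lymphoid minus intestinal difference had 2 members called, Bax being added at 0.81 (adjusted p = 0.00814), and the thymus minus spleen difference 0, with Bcl2l1 at -1.65 (adjusted p = 0.0536). Deviations of libraries from the mean of their window were compared between tissues at the same hour. They correlated at a median of 0.04 (-0.13 to 0.33), with 5 of 48 above 0.1. The highest values were those of spleen with thymus, 0.33 at 3 h and 0.30 at 5 h. The others above 0.1 were also at 5 h, at 0.149, 0.184 and 0.149, each with large intestine in the pair. Values at 1 and 2 h are equal within each pair of tissues, so they are not separate checks. As the labels do not identify animals, these correlations cannot tell whether libraries of the same hour share an animal. With 1 library per hour and unknown depth, changes at single hours have no error of their own.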
